A study of Homo sapiens with 6 samples.

Results

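GDF15, GDF11, INHBA, INHBB, INHBE, TGFB1, TGFB2, TGFB3 and BMP4 encode 9 secreted ligands of the transforming growth factor beta (TGF-beta) family. Their messenger RNA was measured in human cells after depletion of the translation factor EIF4G2. The 9 genes were taken by symbol from the 60612 rows of the deposited gene table. Each had a single row there, and the table held 50229 different symbols. The set was chosen by family membership with the siEIF4G2 and siNC levels of these 6 libraries in view, above all the low GDF15 level in siEIF4G2. The ligands' differences are therefore a description, with an interval and no p-value, and a count of ligands past the threshold is printed beside the share of all genes with nothing read from it.

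The 6 poly(A) RNA libraries are labelled Hep3B, the name of a human line from a hepatocellular carcinoma. The 3 siEIF4G2 libraries are from cells treated with small interfering RNA directed at EIF4G2, at 50 nM. The 3 siNC libraries are from cells that received a control small interfering RNA at the same dose. No gene was edited and no other agent is named for either group. The time between treatment and harvest is not given in the sources used here. Since no label states whether replicates were grown apart, each p-value reflects spread among these libraries alone, and that spread may be technical.

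Ligands of the TGF-beta family are made as precursors, cut by proprotein convertases and secreted as dimers. Most bind pairs of type I and type II serine/threonine kinase receptors, which phosphorylate SMAD transcription factors. TGF-betas and activins act mainly through SMAD2 and SMAD3, and bone morphogenetic proteins (BMPs) through SMAD1, SMAD5 and SMAD9. GDF15 is a distant member with its own receptor, GFRAL, which signals with the co-receptor RET and is found in the hindbrain. It is a stress cytokine whose gene is known to be switched on by ATF4 and CHOP in the integrated stress response and by EGR1.

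The core promoter stretches of the 4 ligands with the highest level in siNC are shown. GDF15, INHBB and TGFB1 were lower in every siEIF4G2 library than in any siNC library, and GDF11 was not. Each stretch covers bases -40 to -11 from the RefSeq start site on GRCh38.p14, written 5′ to 3′ on the gene's strand. Capitals mark the letters TATAAA (the TATA box core) or GGGCGG (a GC box, the Sp1 site), searched on both strands.
GDF15, chr19:18386118-18386147, plus strand: agtccggggacTATAAAggccggtccggca
GDF11, chr12:55743082-55743111, plus strand: ccggggcTATAAAgggcctggcccgggctc
INHBB, chr2:120346096-120346125, plus strand: CGGGGCGGcgcgcccggagcccggagcccg
TGFB1, chr19:41353933-41353962, minus strand: gGGGCGGcttcaaaaccccctgccgaccca

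GDF15 and GDF11 shared a TATAAA match at a like distance, at -29 to -24 in GDF15 and at -33 to -28 in GDF11. Whether promoter letters bear on the differences was not tested. The INHBB and TGFB1 stretches held GC box letters instead. GC boxes also lay before the printed stretch of GDF15, at -119 to -114 and -70 to -65. In GDF11 they lay at -214 to -209 and -206 to -201. In INHBB the capitals join overlapping matches, of which the first begins at -43, before the printed stretch. RefSeq promoter entries matched 8 of the 9 ligands, and INHBE had no entry. Their 11 windows of 250 bases before a start were searched for 7 motifs. TATAAA was in 5 of the 11 windows against 10.7% of 35116 promoters, and GGGCGG in 6 against 42.6%. BMP4 gave 3 of the windows and TGFB3 gave 2, so the windows are not independent and nothing is read from these shares. The TATAAA match of INHBA lay at -11 to -6, nearer the start than those of GDF15 and GDF11. GCGGGGGCG, the EGR1 motif, was in the INHBB and TGFB1 windows, where it overlapped GC box letters, against 4.72% of all promoters. The other 4 motifs matched none of the 11 windows: GTCTAGAC (SMAD), with a share of 0.182% of all promoters, TGANTCA (AP-1) with 6.57%, TGACGTCA (CRE) with 1.65%, and TGATGNAA (the site shared by C/EBP and ATF factors) with 3.14%. The GC content of the window was 58.4% for GDF15, 64.4% for GDF11, 76.8% for TGFB1 and 89.6% for INHBB, beside a median of 58.0% over all promoters. The GDF15 window also lies in an annotated untranslated exon of an upstream-starting GDF15 transcript.

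A microRNA gene, MIR3189, lies in an intron of GDF15, 404 bases after the RefSeq start. Its mature forms are shown because the deposited table counts it as a gene inside GDF15. Capitals mark the seed, bases 2 to 8, and the arms carry different seeds.
hsa-miR-3189-5p, chr19:18386570-18386594: uGCCCCAUcugugcccuggguagga
hsa-miR-3189-3p, chr19:18386607-18386627: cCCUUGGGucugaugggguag

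The check of the label and of the knockdown came first. EIF4G2, the targeted gene, stood at 178, 179.8 and 199.9 CPM in siEIF4G2 and at 1103, 913 and 998 CPM in siNC, where CPM is a gene's count scaled to the library total and edgeR's TMM factor. It was 5.41-fold lower. None of the 10 hepatocyte markers reached 1 CPM on average, ALB, AFP, APOA1, APOB, TTR and FGB were listed at 0 in all 6 libraries, and the summed hepatocyte level was 0.124 to 0.416 CPM in siEIF4G2 and 0.0597 to 0.184 CPM in siNC. The markers thus go against the label of a hepatocellular line, and the cells are called by their label only. Deposited counts summed to between 63351653 and 72863628 per library, and a count of 0 allows up to 0.0403 to 0.0466 CPM (3 counts, counting error only).

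GDF15 carried the largest difference among the ligands. It stood at 223, 221 and 203 CPM in siNC replicates 1, 2 and 3 and at 19.7, 23.4 and 18.2 CPM in siEIF4G2 replicates 1, 2 and 3. The groups lay far apart, and the lowest siNC library was 8.70 times the highest siEIF4G2 library. The means were 216 ± 10.8 and 20.4 ± 2.67 CPM (SD, n = 3 each), a log2 difference of -3.40 (SE 0.11, 95% interval -3.67 to -3.14), or 10.6-fold lower. Among the 13748 genes that reached 0.5 FPKM in 3 or more libraries, this was the 6th largest fall. By mean CPM the gene moved from rank 771 to rank 7772. CPM is not scaled to gene length, so these ranks also depend on length. FPKM, the authors' value scaled to gene length and library depth, went from 85.7 ± 4.08 to 8.24 ± 0.95. Less GDF15 RNA per cell and fewer cells that make it cannot be told apart in these bulk libraries.

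INHBB encodes the beta B subunit of activins and inhibins. Its level was 17.9, 16.2 and 14.8 CPM in siNC and 7.42, 7.03 and 9.08 CPM in siEIF4G2. No siEIF4G2 library reached the lowest siNC library. The log2 difference of the means, 7.84 ± 1.09 against 16.3 ± 1.59 CPM, was -1.05 (SE 0.14, 95% interval -1.38 to -0.73), or 2.08-fold lower.

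TGFB1, the founding TGF-beta ligand, was the third gene whose groups lay apart in the lower direction. It stood at 112.0, 106.0 and 90.1 CPM in siNC and at 74.3, 79.1 and 63.8 CPM in siEIF4G2. The gap was narrow against the spread within siNC, whose replicate 3 came closest to the depleted cells. The means were 102.7 ± 11.3 and 72.4 ± 7.83 CPM, and the log2 difference was -0.50 (SE 0.11, 95% interval -0.78 to -0.23), or 1.42-fold lower.

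GDF11, a ligand close to myostatin, differed little and in the other direction. It stood at 47.9, 46.2 and 45.9 CPM in siNC and at 52.3, 49.6 and 49.2 CPM in siEIF4G2. The groups did not overlap, but the log2 difference of 0.11 (SE 0.05) had a 95% interval of -0.01 to 0.23. Its interval excludes a fall of the size seen in INHBB or TGFB1.

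The remaining ligands were low and their groups overlapped. TGFB3, the TGF-beta form best known from palate formation, stood at 6.47, 5.67 and 6.26 CPM in siNC and at 6.59, 5.08 and 5.91 CPM in siEIF4G2, a log2 difference of -0.07 (SE 0.13, 95% interval -0.39 to 0.25). INHBE, the liver-enriched beta E subunit, stood at 1.98, 1.60 and 1.92 CPM in siNC and at 1.29, 1.98 and 1.41 CPM in siEIF4G2, a log2 difference of -0.23 (SE 0.21, 95% interval -0.76 to 0.29). BMP4 stood at 2.52, 2.22 and 2.20 CPM in siNC and at 3.30, 2.24 and 1.17 CPM in siEIF4G2, and the siEIF4G2 libraries had a coefficient of variation of 47.8%. Its log2 difference was -0.05 (SE 0.36, 95% interval -0.93 to 0.83), so a change of up to nearly 2-fold either way was not detectable in BMP4.

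INHBA and TGFB2 did not pass the filter on low values. INHBA, the beta A subunit of activin A, had 21, 32 and 0 counts in siNC and 26, 12 and 19 in siEIF4G2, so the group ranges overlap. TGFB2 had 6 counts in siNC replicate 2 and 0 in each of the other 5 libraries.

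**Figure D1:**
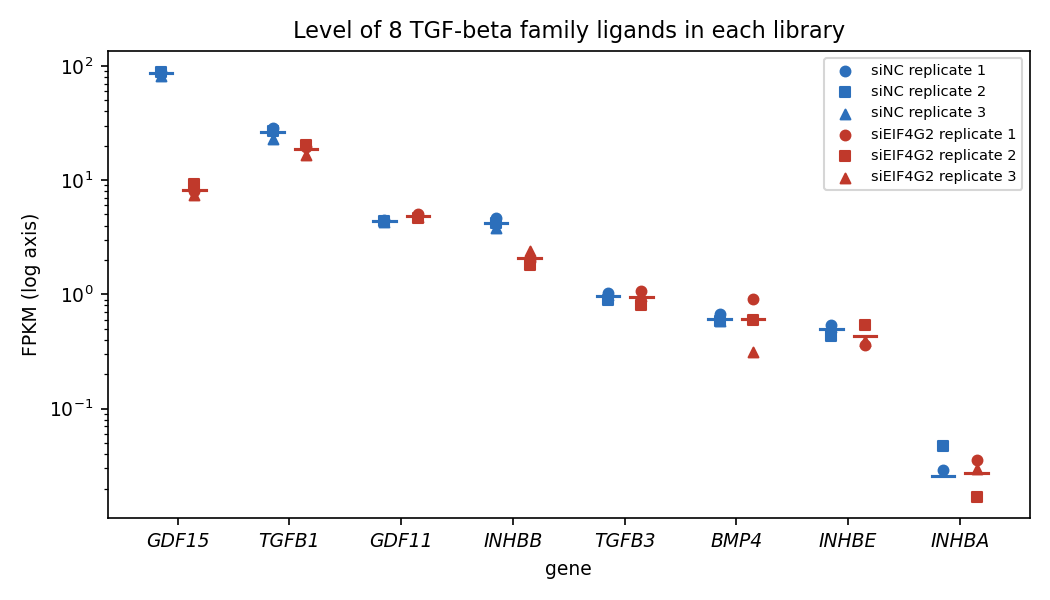
FPKM of 8 ligands in each library on a log axis, with siNC in blue, siEIF4G2 in red, a marker shape per replicate and a bar at the group mean (n = 3). GDF15 drops from 85.7 to 8.24 FPKM while the GDF11 groups, and the TGFB3 groups, lie close together. TGFB2 is left out, and INHBA in siNC replicate 3, with 0 counts, has no point but is in the mean.

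Of the 7 ligands that passed the filter, 3 were lower past an edgeR adjusted p of 0.05 and 0 were higher, where 17.6% of all tested genes were lower and 15.9% higher. Falls of at least 2-fold, which GDF15 and INHBB had, were found in 2.59% of tested genes, and rises of that size, which no ligand had, in 0.96%. The groups lay apart in the lower direction for 3 ligands, against 25.5% of tested genes, and in the higher direction for 1, against 25%, which makes 4 ligands against 50.6% in either direction. The median log2 difference was -0.23 over the 7 ligands and 0.0075 over all tested genes. Nothing is read from these shares, since the ligands were picked with this contrast known. Without siNC replicate 1, or without siNC replicate 2, the count of lower ligands was 2, as TGFB1 then missed the threshold.

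**Figure D2:**
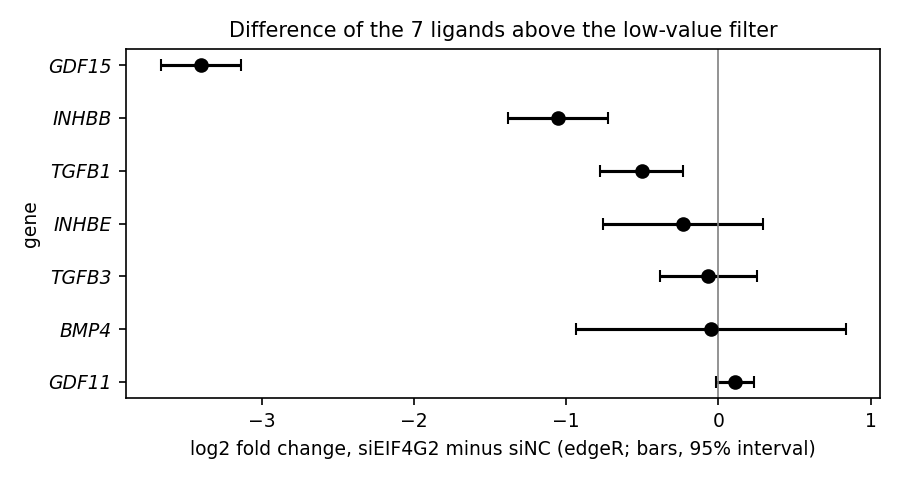
Log2 difference (siEIF4G2 minus siNC) of the 7 ligands above the filter, as points with 95% intervals from edgeR. The intervals of GDF15 (-3.67 to -3.14), INHBB and TGFB1 lie below 0, and those of INHBE, TGFB3, BMP4 and GDF11 cross it.

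Levels can be compared between genes only per length, in FPKM. In siNC the order was GDF15 (85.7 ± 4.08), TGFB1 (26.2 ± 2.82), GDF11 (4.40 ± 0.087), INHBB (4.21 ± 0.40), TGFB3 (0.969 ± 0.062), BMP4 (0.614 ± 0.048), INHBE (0.497 ± 0.055), INHBA and TGFB2. GDF11 and INHBB overlapped there, and the other neighbours down to INHBE did not. In siEIF4G2 the order was TGFB1 (18.8 ± 1.84), GDF15 (8.24 ± 0.95), GDF11 (4.83 ± 0.20), INHBB (2.07 ± 0.31), TGFB3 (0.945 ± 0.14), BMP4 (0.603 ± 0.30) and INHBE (0.429 ± 0.095). BMP4 there overlapped both TGFB3 and INHBE, and TGFB1 had taken the place of GDF15 at the top.

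The makeup of the ligand messages therefore differed between the groups. The 9 ligands summed to 128, 125 and 114 FPKM in siNC and to 36.9, 37.9 and 33.0 FPKM in siEIF4G2. GDF15 made up 69.9 ± 0.98% of that sum in siNC and 22.9 ± 1.42% in siEIF4G2, while TGFB1 went from 21.3 ± 1.05% to 52.2 ± 1.40%. Without GDF15 the other 8 ligands summed to 36.9 ± 3.32 and 27.7 ± 1.84 FPKM, so most of the drop in the sum was GDF15. Over 33 ligands of the family the sum went from 188 ± 7.55 to 99.8 ± 5.13 FPKM, and GDF15 passed from first place, with 45.5 ± 0.43%, to rank 4, with 8.24 ± 0.64%. BMP2, a bone morphogenetic protein, was then the most abundant ligand, at 42.6 ± 2.20 FPKM against 33.9 ± 0.63 in siNC.

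**Figure D3:**
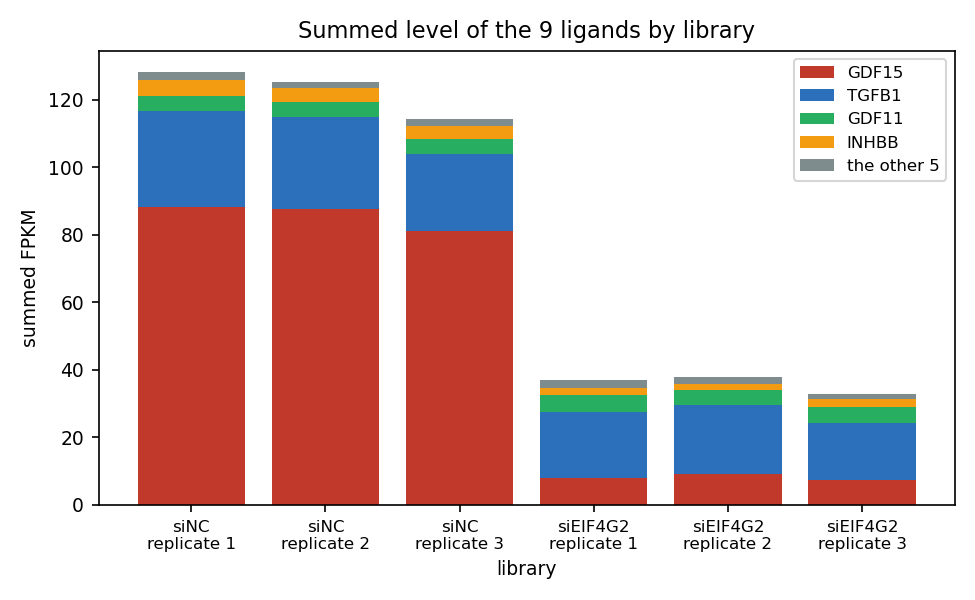
Summed FPKM of the 9 ligands in each library, stacked by ligand. The 3 siNC bars reach 114 to 128 FPKM, mostly GDF15, and the 3 siEIF4G2 bars reach 33.0 to 37.9 FPKM, mostly TGFB1.

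The GDF15 locus was looked at gene by gene. The deposited GDF15 interval, chr19:18374731-18389176 on the plus strand, begins 11427 bases before the RefSeq start, because it includes upstream-starting transcripts. MIR3189 had 24, 17 and 19 counts in siNC and 3, 2 and 2 in siEIF4G2. Its fitted log2 difference was -3.03 (SE 0.38), a value that rests on 2 or 3 counts in each siEIF4G2 library and so depends on the fit. No test of MIR3189 is quoted, since its reads may be those of GDF15, whose low level was in view when the set was chosen. Per 1000 GDF15 counts MIR3189 had 1.57, 1.15 and 1.33 in siNC and 2.05, 1.301 and 1.71 in siEIF4G2. The ranges overlap, the libraries hold poly(A) RNA, and reads of the GDF15 precursor and of the microRNA gene cannot be told apart. PGPEP1, the nearest tested gene before GDF15 and a pyroglutamyl peptidase gene, stood at 54.1, 54.9 and 48.4 CPM in siNC and at 34.7, 29.7 and 5.12 CPM in siEIF4G2. Its log2 difference of -1.18 (SE 0.63) did not pass (edgeR adjusted p = 0.198), and without siEIF4G2 replicate 3 it was -0.70 with an adjusted p of 0.0105. Over 15 alternatives that adjusted p ran from 0.0105 to 0.309. SSBP4, the nearest tested gene after GDF15, differed by 0.15 (SE 0.08, edgeR adjusted p = 0.200).

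Other ligands overlap genes on the opposite strand, and no source says whether reads were assigned by strand. GDF11 overlaps SARNP, whose log2 difference was 0.27 (edgeR adjusted p = 0.0587). TGFB1 overlaps HNRNPUL1, which rose by 0.22 (edgeR adjusted p = 0.0098), CCDC97, which fell by 0.26 (0.0188), and TMEM91, at -0.23 (0.579). TGFB3 overlaps IFT43, which fell by 0.44 (0.0244). INHBE overlaps AC022506, an untested noncoding gene with 59, 87 and 93 counts in siNC and 60, 37 and 65 in siEIF4G2. INHBE itself had 136, 107 and 135 counts in siNC and 96, 130 and 91 in siEIF4G2. On its own strand TGFB1 overlaps an untested noncoding gene, AC011462, with 94, 100 and 83 counts in siNC and 75, 70 and 57 in siEIF4G2. CCDC97 missed the threshold without siEIF4G2 replicate 3, siNC replicate 2 or siNC replicate 3 (adjusted p up to 0.0633), and IFT43 without replicate 3 of either group, siEIF4G2 replicate 1 or siNC replicate 2 (up to 0.0723). Reads of these partners and of the ligands cannot be told apart.

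The 5 genes whose pattern was most like that of GDF15 were DKK3, MIR3648-1, TRIM22, ACTA2 and CHRNA10. Likeness was the root mean square difference of log2 CPM over the 6 libraries, each gene set to its siNC mean, among 11853 genes with a mean of at least 1 FPKM whose interval does not overlap GDF15. MIR3189, inside GDF15, was left out for that reason. The difference was 0.449 for DKK3, which encodes a secreted Wnt pathway protein, and 0.557 to 0.696 for the other 4. It depends largely on how close the size of a gene's fall is to that of GDF15. MIR3648-1 had 5, 9 and 12 counts in siEIF4G2 and 56, 93 and 69 in siNC, so its value is less certain. DKK3 stood at 89.1, 90.2 and 85.2 CPM in siNC and at 12.6, 15.04 and 11.3 CPM in siEIF4G2. ACTA2, smooth muscle actin, stood at 15.9, 15.4 and 13.6 CPM in siNC and at 2.71, 3.01 and 2.38 CPM in siEIF4G2. DKK3, TRIM22, ACTA2 and CHRNA10 overlap other tested genes, so some of their reads may be shared.

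Around the ligands, 7 lists of the family's pathway and 2 of 3 lists of GDF15 regulators are described from the fit over all genes. They were themselves chosen with earlier results known, and the 2 do not stand for the known regulators of GDF15 as a whole. The 7 pathway lists held 112 genes, of which 65 were tested, 11 rose and 20 fell, with a median log2 difference of -0.07. Of all tested genes 15.9% rose and 17.6% fell, with a median of 0.0075. These shares stand beside each list count that follows. ACVR2A, SMURF2, NBL1, TGM2 and TAGLN in the pathway lists, and HIF1A in a regulator list, overlap other tested genes and may share reads with them.

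Among 24 other ligands, 5 were tested, 2 fell and 2 rose. BMP6, known from iron control in the liver, fell from 114 ± 1.66 to 70.4 ± 3.28 CPM, a log2 difference of -0.70 (SE 0.05, edgeR adjusted p = 0.00047). INHA, the alpha subunit that turns activin chains into inhibins, fell from 7.07 ± 0.65 to 3.03 ± 0.40 CPM, by 1.23 on the log2 scale (SE 0.14, edgeR adjusted p = 0.00198). The INHA groups lay apart, as did those of its partner chain INHBB. BMP2 rose from 145 ± 2.92 to 179 ± 10.2 CPM, a log2 difference of 0.30 (SE 0.05, edgeR adjusted p = 0.00817). BMP8B rose by 0.41 (SE 0.10, edgeR adjusted p = 0.0215), and missed the threshold without siEIF4G2 replicate 2, siEIF4G2 replicate 3 or siNC replicate 3 (adjusted p up to 0.0596). BMP6, INHA and BMP8B overlap genes on the opposite strand.

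Of 16 receptors, 9 were tested, 2 rose and 1 fell, with a median of -0.07. BMPR1A, a type I BMP receptor, rose by 0.35 on the log2 scale (SE 0.05, edgeR adjusted p = 0.00392), from 38.2 ± 0.22 to 48.7 ± 1.69 CPM. TGFBR2, the type II receptor of TGF-betas, fell by 0.25 (edgeR adjusted p = 0.019), and missed the threshold without siNC replicate 1 or 3 (adjusted p up to 0.0611). ACVR1B, the type I activin receptor, rose by 0.24 (edgeR adjusted p = 0.0353), and missed it in 5 of the 6 fits that left out a library, all but the fit without siEIF4G2 replicate 3 (adjusted p up to 0.111). ACVR2A, a type II activin receptor, had a log2 difference of 0.84 (SE 0.36) and did not pass (edgeR adjusted p = 0.125). Without siNC replicate 1 it was 1.34, with an adjusted p of 0.00984, and over 14 alternatives the adjusted p ran from there to 0.273. GFRAL and RET, through which GDF15 is known to signal, were listed at 0 counts in all 6 libraries.

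All 16 SMAD proteins and SMAD regulators were tested, and 2 rose and 1 fell, with a median of 0.09. SMAD6, an inhibitory SMAD of the BMP branch, fell by 0.43 on the log2 scale (SE 0.05, edgeR adjusted p = 0.00201). SKI, a SMAD co-repressor, rose by 0.43 (SE 0.06, edgeR adjusted p = 0.00363). SMURF2, a ubiquitin ligase for SMADs and receptors, rose by 0.30 (SE 0.06, edgeR adjusted p = 0.0139), and missed the threshold without siNC replicate 2 (0.0556). SKIL, the relative of SKI, had a difference of -0.45 (edgeR adjusted p = 0.0861) and passed without siEIF4G2 replicate 2, at -0.59 with an adjusted p of 0.0478. Over 15 alternatives its adjusted p ran from 0.0184 to 0.21.

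Latent TGF-beta is held in the matrix by LTBP proteins and freed by integrins or proteases. Of 18 genes for latency, activation and processing, 11 were tested, 4 fell and 2 rose, with a median of 0.09. ITGAV, the integrin alpha V chain, fell from 88.3 ± 7.67 to 51.6 ± 7.09 CPM, by 0.77 on the log2 scale (SE 0.12, edgeR adjusted p = 0.00479). BMP1, a procollagen and LTBP protease despite its name, fell by 0.54 (SE 0.06, edgeR adjusted p = 0.0022), LTBP3 by 0.43 and LTBP4 by 0.54. LTBP1 rose by 0.51 (SE 0.08, edgeR adjusted p = 0.00439) and THBS1, an activator of latent TGF-beta, by 0.28 (edgeR adjusted p = 0.0308). LTBP4 and THBS1 each missed the threshold in 5 of the 6 fits that left out a library (adjusted p up to 0.0833 and 0.0987). LTBP4 held without siEIF4G2 replicate 2, and THBS1 without siEIF4G2 replicate 1. The LTBP family thus moved in both directions.

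Of 18 extracellular antagonists and decoys, 8 were tested, 3 rose and 2 fell, with a median of 0.07. FSTL3, which binds activins and GDF11, stood at 664, 645 and 632 CPM in siNC and at 227, 253 and 239 CPM in siEIF4G2. It fell by 1.43 on the log2 scale (SE 0.05, edgeR adjusted p = 0.000207), or 2.70-fold, and the groups lay far apart. NBL1, a BMP antagonist, rose by 0.36, TWSG1, a BMP modulator, fell by 0.21, BAMBI, a pseudoreceptor, rose by 0.19, and DCN, a proteoglycan that binds TGF-beta, rose by 0.73. All 4 of these calls were lost in some fit that left out a library. NBL1 missed the threshold without siEIF4G2 replicate 1 or siNC replicate 2 (adjusted p up to 0.0577), and BAMBI without any 1 of the 6 (up to 0.0842). TWSG1 missed it when siEIF4G2 replicate 1 or 2, or siNC replicate 1 or 3, was left out (up to 0.0767), and DCN without replicate 1 or 2 of either group (up to 0.0987).

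Of 16 SMAD3 target genes, 13 were tested, 6 fell and 1 rose, with a median of -0.43. TGM2, transglutaminase 2, stood at 47.2, 43.5 and 47.5 CPM in siNC and at 20.6, 20.6 and 18.97 CPM in siEIF4G2, a log2 difference of -1.20 (SE 0.07, edgeR adjusted p = 0.000302). Every siEIF4G2 library lay well below every siNC library. Also among those that fell were TGFBI, by 0.73, TAGLN by 0.63, BHLHE40 by 0.54 and COL1A1 by 0.43, and THBS1 was the 1 that rose. The 6 that did not pass had log2 differences of -0.45 for SKIL, -0.09 for CCN2, -0.08 for CDKN2B, 0.01 for CCN1, 0.08 for SMAD7 and 0.33 for PMEPA1. PMEPA1 stood at 16.9 CPM in siNC replicate 1 and at 65.4 and 57.0 CPM in the other siNC libraries. Without siNC replicate 1 its difference was -0.07, and that of SMAD7 -0.03.

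Of 12 BMP target genes, 10 were tested, 5 fell and 1 rose, with a median of -0.25. ATOH8, a BMP-responsive transcription factor, fell from 17.8 ± 0.61 to 11.3 ± 0.11 CPM, by 0.66 on the log2 scale (SE 0.07, edgeR adjusted p = 0.00163). ID2 fell by 0.57, ID1 by 0.43 and ID3 by 0.29. The ID proteins are dominant-negative partners of basic helix-loop-helix factors. ID3 missed the threshold in each fit that left out a library except the one without siEIF4G2 replicate 2 (adjusted p up to 0.0822). SMAD6, counted here too, fell, and BAMBI rose.

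**Figure D4:**
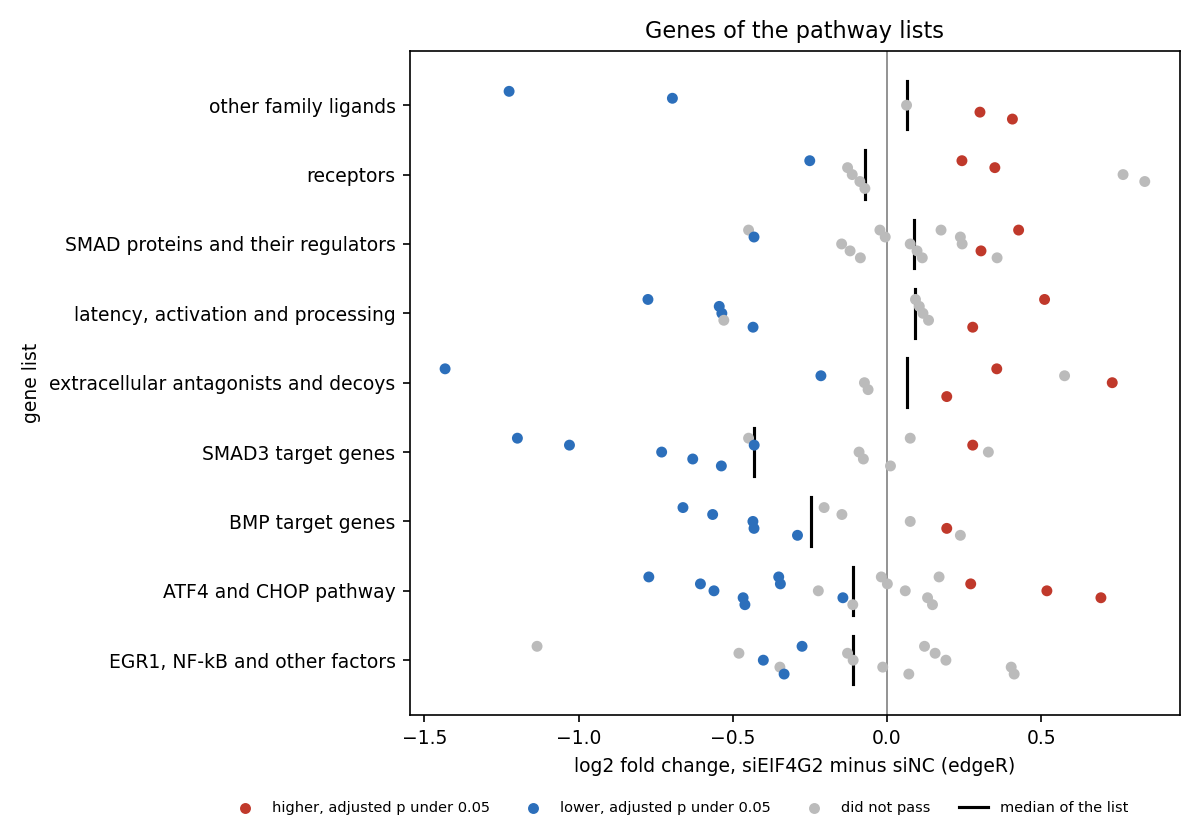
Log2 difference (siEIF4G2 minus siNC) of every tested gene of 9 lists, 1 row per list, with a black bar at the list's median. Blue points fell and red points rose past an edgeR adjusted p of 0.05. The SMAD3 target list has a median of -0.43, and the lists of ligands, receptors and SMAD proteins lie on both sides of 0.

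Of 20 genes of the ATF4 and CHOP pathway, 19 were tested, 8 fell and 3 rose, with a median of -0.11. Over all tested genes 17.6% fell and 15.9% rose. The 3 that rose were the serine and asparagine synthesis genes PSAT1 (log2 difference 0.69, SE 0.04, edgeR adjusted p = 0.000263), ASNS (0.52) and PHGDH (0.27). Those that fell included SESN2 (-0.77, SE 0.10, edgeR adjusted p = 0.00269), DNAJB9 (-0.47), a chaperone of the endoplasmic reticulum, and VLDLR (-0.46), a lipoprotein receptor. The rest of those that fell were NUPR1 (-0.60), ATF3 (-0.56), CEBPB (-0.35), PPP1R15A (-0.35) and HSPA5 (-0.14). HSPA5 missed the threshold in 9 of 15 alternatives, 5 of them fits that left out a library (adjusted p up to 0.111). Of the 6 fits that left out a library, CEBPB missed it in 4 and ATF3 in 3 (adjusted p up to 0.0689 and 0.058). ASNS missed the threshold when replicate 2 or 3 of either group was left out, and PHGDH when siEIF4G2 replicate 1 or 2, or siNC replicate 2 or 3, was left out (adjusted p up to 0.0631 and 0.0649). ATF4 stood at 71.8, 41.2 and 40.2 CPM in siNC and at 48.2, 51.3 and 51.8 CPM in siEIF4G2, and siNC replicate 1 stood alone. Its log2 difference was -0.02 (edgeR adjusted p = 0.959), and without siNC replicate 1 it was 0.30, with an adjusted p of 0.0295, in a range of 0.0295 to 0.996 over 15 alternatives. DDIT3, which encodes CHOP, stood at -0.11 (edgeR adjusted p = 0.831).

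The list of EGR1, NF-kB and other factors reported to drive GDF15 was tested in full, and of its 15 genes 3 fell and 0 rose, with a median of -0.11. Over all tested genes 17.6% fell and 15.9% rose. HIF1A, the oxygen-regulated factor, fell by 0.33 on the log2 scale (SE 0.06, edgeR adjusted p = 0.0066), from 791 ± 44.1 to 628 ± 25.2 CPM. MITF fell by 0.28 and TFEB by 0.40, both of them related basic helix-loop-helix factors. TFEB missed the threshold without siEIF4G2 replicate 1 (adjusted p = 0.0581). EGR1 stood at 3.03 ± 0.41 CPM in siNC and 4.004 ± 1.08 CPM in siEIF4G2 (edgeR adjusted p = 0.241), and JUN at -0.35 (edgeR adjusted p = 0.0962). NFE2L2 and MYC did not pass either, and varied widely between libraries. NFE2L2 stood at 187, 214 and 199 CPM in siNC and at 37.7, 194 and 41.6 CPM in siEIF4G2 (edgeR adjusted p = 0.229). MYC stood at 71.1, 74.9 and 14.9 CPM in siNC and at 164, 27.8 and 21.8 CPM in siEIF4G2 (edgeR adjusted p = 0.770).

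Some markers of other cell types differed between the groups, and many were too low to be tested. Over all tested genes 17.6% fell and 15.9% rose past the threshold. CD68, CSF1R and KRT7 overlap other tested genes and may share reads with them. Of 6 white blood cell markers, CD68 and CSF1R fell, PTPRC and CD163 were at 0 throughout, and the sum was 38.9 to 46.0 CPM in siNC and 23.4 to 30.1 CPM in siEIF4G2. Of 5 endothelial markers, CDH5 fell, TIE1 was at 0, and the sum was 10.1 to 10.9 and 3.33 to 4.12 CPM. Of 6 fibroblast markers, PDGFRB and COL1A1 fell and DCN and LUM rose, and the sums, 249.1 to 282 and 274 to 310 CPM, overlapped. LUM missed the threshold without any 1 siEIF4G2 library or without siNC replicate 2 (adjusted p up to 0.109). Of 7 trophoblast markers, KRT7 fell and CGA rose, CGA missing the threshold without siNC replicate 1 or 2, HSD3B1 was at 0, and the sum, nearly all of it KRT7, was 780 to 922 and 380.5 to 441 CPM. The 5 adipocyte markers, looked up because the protocol text speaks of adipose material, summed to 0.184 to 0.209 CPM in siNC and to 0 in siEIF4G2. Their part in the ligand differences was not tested.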

How the data were processed

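Poly(A) RNA was sequenced in 6 libraries, grouped by their titles. Per the submitters' processing notes, HISAT2 2.0 and StringTie 1.3.0 were used, with no role given. Build, annotation and use of strand: not given in the sources used here. Of 58394 identifiers shared with GENCODE 29 (GRCh38), 99.8% had overlapping intervals, all 9 ligands among them. The deposited table holds, per library, whole numbers that behave as rounded estimated counts, and FPKM values computed by the authors, which list 0.0001 where the count is 0. No value column was left unused (0 columns).

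Where a symbol had several rows, the one with the greatest mean FPKM was kept. The 13748 genes that reached 0.5 FPKM in 3 or more libraries were tested with edgeR 4.0.16 (quasi-likelihood, TMM, Benjamini-Hochberg over all tested genes, two-sided) in R 4.3.3. Differences, standard errors and intervals come from that fit, with 4 residual degrees of freedom and a common coefficient of biological variation of 19.4%. CPM uses the deposited totals times the TMM factors. Alternatives were DESeq2 1.42.0, limma 3.58.1 on log2(FPKM + 1) or log2(FPKM + 0.1), other filters and scalings, summed rows, a replicate block and leaving out each library. On simulated counts for the same 13748 genes, the edgeR step found 86% of 4-fold changes, 68% of 2-fold changes, 14% of 1.5-fold changes and 0% of 1.3-fold changes. It made 89 calls, 5 of them on genes left unchanged. Far fewer genes were changed there than the 4597 called in the data, which made the adjusted threshold stricter. The rates are therefore not those of the siEIF4G2 and siNC contrast.

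The ligands and the gene lists were chosen with earlier results of these data known. Named genes were the ligands, EIF4G2, ATF4, DDIT3, EGR1, in each list up to 4 genes of smallest p, the 5 genes most like GDF15, its tested neighbours and counted genes overlapping a ligand. LTBP4, THBS1, DCN, COL1A1, TAGLN, ID3, ASNS, PHGDH, NUPR1, ATF3, CEBPB, PPP1R15A, HSPA5, NFE2L2 and MYC were named after their values were seen. So were the SMAD3 targets that did not pass and the cell type markers that moved. A further list and some genes that the rule takes are not reported here. Sequences are RefSeq's on GRCh38.p14. Tables and plots were made in Python 3.11.15 (pandas 2.3.3, numpy 2.4.6, matplotlib 3.10.9).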

Additional observations from a re-analysis of the deposited data

How the results depend on the processing

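The ligands kept their direction wherever their interval excluded 0: over 13 alternatives fitted to counts the log2 difference was -3.51 to -3.32 for GDF15, -1.17 to -0.98 for INHBB and -0.59 to -0.42 for TGFB1. GDF11 stayed at 0.08 to 0.14, whereas TGFB3 (-0.16 to 0.03) and BMP4 (-0.44 to 0.26) took either sign. The count of lower ligands was 2 to 3 when a library was left out. Over all 10 lists together, of which 9 are described, 117 genes were tested, 14 rose and 45 fell. Of all tested genes 15.9% rose and 17.6% fell. The list that is not described held 14 of the falls and 0 of the rises. The 7 pathway lists held 20 of the falls and 11 of the rises. Over the 10 lists, leaving out a library gave 6 to 13 rises and 39 to 46 falls. All tested genes then gave 1517 to 1869 rises and 1717 to 2227 falls. With a replicate block, 9 list genes rose and 43 fell, and 3 ligands were lower. No label says whether the replicate numbers pair the libraries. Deviations of same-numbered libraries from their group means correlated at -0.0211, 0.0186 and 0.0343 across genes, and those of other-numbered libraries at -0.0632 to 0.0445. These values cannot decide on pairing, since an effect on a part of the genes need not show in them. Of the 59 list genes called, 41 were called in all 15 alternatives and 18 were lost in some. ATF4 took the other sign without siNC replicate 1, at 0.30. Outside the lists, calls were lost in 5 alternatives for IFT43, 4 for CCDC97, 6 for LUM and 3 for CGA, and SARNP passed in 4. The cause of these shifts was not tested. Depth limits INHBA and TGFB2, whose counts gave no fold change, and MIR3189, which had 2 or 3 counts per siEIF4G2 library.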
